A study of Mus musculus with 4 samples.

Results

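The genes described here are 10 listed members of the epidermal growth factor (EGF) receptor family: the receptors Egfr, Erbb2 and Erbb3, the ligands Areg, Ereg, Hbegf, Tgfa, Egf and Btc, and the receptor inhibitor Errfi1. They were taken by name from a list made with earlier results of these data known, and each was read from the probe set annotated to that gene alone, or from the one with the highest mean where there were several. A probe set was found for 9 of the 10, out of 22180 genes named on the array, and these 9 passed the filter on level that kept 12060 genes for testing. Areg, which encodes amphiregulin, had no probe set in the annotation used here and is not analysed here. RNA came from colon of C57BL/6 mice aged 3 months, on 1 Affymetrix array each for Dmt1F/F tumour, Dmt1+/+ tumour, Dmt1F/F normal colon and Dmt1+/+ normal colon. The Dmt1F/F arrays are called F/F here and the Dmt1+/+ arrays wild-type. All 4 carried the ApcF/+ genotype and the label CDX2, so that the normal colon was also ApcF/+, and the labels do not spell out what CDX2 stands for or which cells of the colon the alleles were changed in. F is the usual sign for a floxed allele, one that Cre recombinase can cut. The design text names 4 F/F and 7 wild-type animals but not which of them, alone or as a pool, each array stands for. With 1 array per group, a difference between 2 arrays has no replicate check.

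Members of the EGF receptor family are receptor tyrosine kinases that pair with each other when a ligand binds. EGFR binds EGF, TGF-alpha and amphiregulin, and betacellulin, HB-EGF and epiregulin bind EGFR and ERBB4, whereas ERBB2 has no known ligand of its own and ERBB3, whose kinase is weak, binds neuregulins and signals mainly through its partner. The ligands are made as membrane proteins and released by metalloproteinases, and the receptors pass the signal on through Ras and MAP kinase and through PI3 kinase. In the intestine this signalling is known for supporting the growth of crypt stem cells, and mice with a mutant Apc allele are known to form fewer polyps when EGFR activity is reduced.

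The values are log2 signals made by the authors with RMA, in which 1 unit is a 2-fold step. A level is a property of its probe set, so levels are compared between arrays for a gene and not between genes. The median level of all genes was log2 4.67, which was also the filter. Slc11a2, the gene of DMT1, was lower in F/F than in wild-type by a log2 difference of -0.45 in tumour and -0.38 in normal colon, with an adjusted p of 0.564 for genotype in limma. Of 8 Wnt target genes used to check the tumour label, 7 rose in tumour. Among other cell markers in tumour, 4 of 5 Paneth cell genes and 1 of 5 endothelial genes rose, 2 of 8 goblet cell genes and 3 of 6 T and NK cell genes fell, 1 enteroendocrine gene rose and 4 fell of 6, and 1 of 3 tuft cell genes rose. None of 6 smooth muscle genes passed over both genotypes, but all 6 were past 2-fold lower in wild-type tumour (median -1.99) and 0 in F/F tumour (median -0.52). None of 5 B cell genes passed, but all 5 were past 2-fold higher in F/F tumour (median 2.53) and 0 in wild-type tumour (median -0.40). Of position markers, 3 of 6 posterior Hox genes rose, and 1 rose and 3 fell of 6 proximal genes. Of the genes that rose, 1 each of the Wnt target, Paneth, tuft and proximal lists passed the filter through the tumour arrays alone, and of those that fell, 2 T and NK cell genes and 1 proximal gene did so through the normal arrays alone, so they had to differ. The labels give no position along the colon for any piece, so position cannot be told apart from tumour or, between the normal arrays, from genotype. All 9 pan-epithelial markers, Epcam and Cdh1 among them, were above the filter.

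Tumour was first set against normal colon. Of the 9 members, 1 rose in tumour (Ereg), 1 fell (Erbb3) and 7 did not pass limma's test over both genotypes. Each direction thus held 11.1% of the members, against 11.0% of all 12060 genes called higher and 8.23% called lower, so the share of members called was near the background in both directions. The median fitted difference of the members was -0.28, beside 0.07 for all genes tested. Without any ranking by test, both tumour arrays lay above both normal arrays for Ereg and Btc, which is 22.2% of the members against 40.1% of all genes. They lay below for Erbb2, Erbb3, Hbegf and Errfi1, which is 44.4% against 29.2%. These arrays are of whole tissue, so fewer cells of a type and less RNA per cell cannot be told apart in any of the values.

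**Figure D1:**
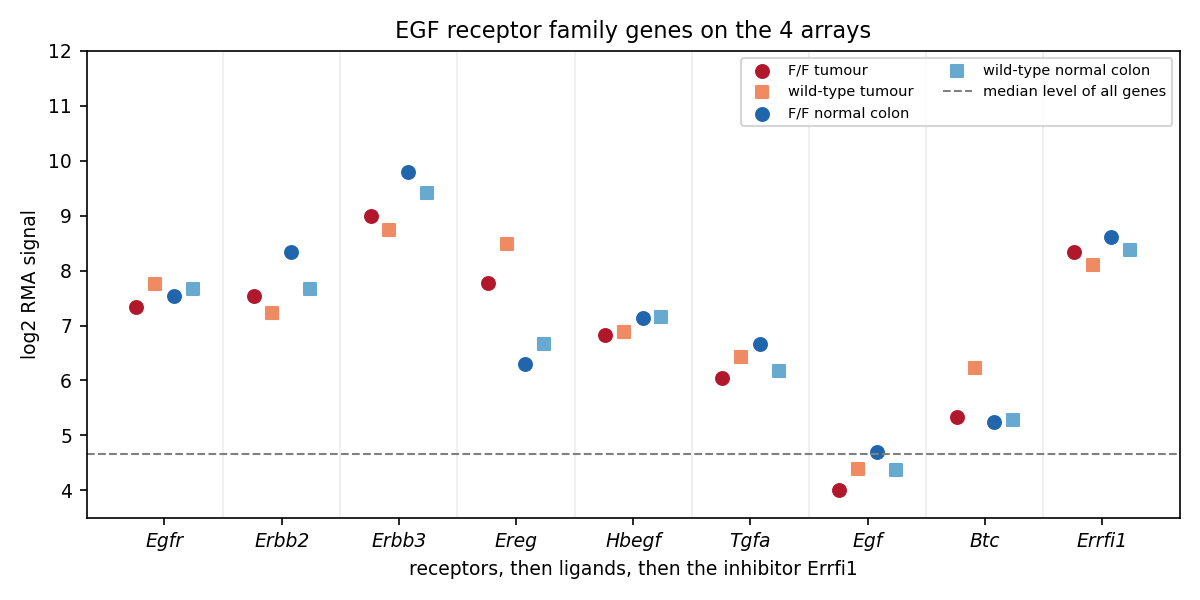
The plot gives the log2 RMA signal (vertical axis) of the 9 measured members on each of the 4 arrays, 1 point per array, with the median level of all genes as a dashed line. Ereg was higher and Erbb3 lower on both tumour arrays, and Egf lay below the dashed line except in F/F normal colon, where it was just above it.

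Of the receptors, Erbb3 showed the clearest difference. Its level was 8.99 in F/F tumour and 8.74 in wild-type tumour, against 9.80 in F/F normal colon and 9.41 in wild-type normal colon. Both tumour arrays were below both normal arrays, with a tumour-minus-normal difference of -0.81 in F/F and -0.67 in wild-type mice. In limma's fit over both genotypes Erbb3 fell by 0.74 (SE 0.11, log2 scale, adjusted p = 0.0231), a 1.67-fold lower level in tumour. The call did not hold with genotype left out of the model (adjusted p = 0.0503), nor with 3 arrays and tissue alone (0.0548 without F/F tumour, 0.189 without wild-type tumour, 0.179 without F/F normal colon and 0.0653 without wild-type normal colon).

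Erbb2, the partner that Erbb3 signals through, followed the same order of arrays. It stood at 7.54 in F/F tumour and 7.23 in wild-type tumour, against 8.34 in F/F normal colon and 7.66 in wild-type normal colon. The groups did not overlap, but the gap between F/F tumour and wild-type normal colon was small beside that between the normal arrays themselves. The fitted difference of -0.62 (SE 0.14, adjusted p = 0.0511) lay at the edge of the threshold. Of 9 other limma settings that used all the arrays, 5 put it past the threshold, with adjusted p from 0.0210 to 0.149 over the 9. With 1 array left out and tissue alone in the model, the difference lay between -0.95 and -0.28.

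Egfr itself was nearly level. It had 7.34 in F/F tumour and 7.75 in wild-type tumour, against 7.54 in F/F normal colon and 7.66 in wild-type normal colon. The tumour arrays were the lowest and the highest of the set, so the tissues overlapped, and the fitted difference was -0.05 (SE 0.13, adjusted p = 0.791).

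Of 9 pan-epithelial markers none rose and 1, Vil1, the gene of the brush border protein villin, fell by 0.65 (SE 0.12, adjusted p = 0.0318). The Vil1 call was lost without the trend (adjusted p = 0.0597), with tissue alone in the model (0.0808) and, in that model, without wild-type tumour (0.248), F/F normal colon (0.279) or wild-type normal colon (0.132). Of the 9, 6 were lower and 3 higher in tumour in both genotypes. The 3 were Cdh1 (0.42 in F/F and 0.19 in wild-type mice), Krt18 (0.28 and 0.42) and Epcam (0.02 and 0.11), which had the opposite sign to Erbb2 and Erbb3, and none of these 3 passed. Summed on the linear scale, the 9 markers gave 9157 in F/F tumour and 8840 in wild-type tumour, against 10188 in F/F normal colon and 9413 in wild-type normal colon. Of 8 measured markers of absorptive colonocytes 4 fell and none rose, with sums of 10598 in F/F tumour and 4235 in wild-type tumour, against 16737 and 15426 in F/F and wild-type normal colon. The part of either list in the Erbb2 and Erbb3 values was not tested.

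Among the ligands, Ereg, the gene of epiregulin, rose in tumour. Its level was 7.78 in F/F tumour and 8.48 in wild-type tumour, against 6.30 in F/F normal colon and 6.67 in wild-type normal colon. Every tumour value was more than 1 log2 unit above every normal value. The level in tumour was 2.78-fold higher in F/F mice and 3.52-fold higher in wild-type mice, and the fitted difference was 1.65 (SE 0.14, adjusted p = 0.0100). Ereg was the only member past a log2 difference of 1, in F/F mice (where 9.79% of all genes were past it in either direction) and in wild-type mice (11.9%). At a log2 difference of 0.5, 5 of 9 members were past it in F/F mice (55.6%, against 31.1% of all genes) and 3 of 9 in wild-type mice (33.3%, against 36.6%). In F/F mice Erbb2, Erbb3, Tgfa and Egf were lower in tumour and Ereg higher. Egf passed the filter through the F/F normal array alone, so it had to be lower in F/F tumour and the F/F count is not independent of the filter. In wild-type mice Erbb3 was lower and Btc and Ereg were higher. With tissue alone in the model, the call was kept without F/F tumour (adjusted p = 0.0128) and lost without wild-type tumour (0.0770), F/F normal colon (0.128) or wild-type normal colon (0.0611), with the difference between 1.29 and 2.00 in these fits. A second Ereg probe set read close to the lower end of the array, at 3.92 in F/F tumour and 3.80 in wild-type tumour, against 3.52 in F/F normal colon and 3.57 in wild-type normal colon. It had the same order of tissues at smaller differences, and with the mean of both probe sets the fitted difference of Ereg was 0.98.

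Btc, the gene of betacellulin, differed in 1 tumour. It had 5.33 in F/F tumour and 6.22 in wild-type tumour, against 5.24 in F/F normal colon and 5.28 in wild-type normal colon. Only the wild-type tumour stood apart from the other 3 arrays. The tumour-minus-normal difference was 0.09 in F/F and 0.94 in wild-type mice, and the fit over both gave 0.51 (SE 0.25, adjusted p = 0.206). With 1 array for each tumour, the difference between the genotypes was not tested.

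Hbegf, the gene of the heparin-binding ligand HB-EGF, was slightly lower in both tumours. Its values were 6.83 in F/F tumour and 6.89 in wild-type tumour, against 7.13 in F/F normal colon and 7.16 in wild-type normal colon, which is -0.29 in the fit (SE 0.12, adjusted p = 0.152). The tissues did not overlap and the genotypes were close together within each tissue.

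Tgfa and Egf went in opposite directions in the genotypes. Tgfa, the gene of TGF-alpha, had 6.04 in F/F tumour and 6.43 in wild-type tumour, against 6.67 in F/F normal colon and 6.18 in wild-type normal colon. Tumour was thus lower by -0.63 in F/F mice and higher by 0.25 in wild-type mice, with a fitted difference of -0.19 (SE 0.24, adjusted p = 0.598). The highest value was F/F normal colon and the lowest F/F tumour, with both wild-type arrays between them. Egf had 4.01 in F/F tumour and 4.39 in wild-type tumour, against 4.69 in F/F normal colon and 4.37 in wild-type normal colon. Egf passed the filter through the F/F normal array alone, so its tumour-minus-normal differences of -0.68 in F/F and 0.02 in wild-type mice are uncertain in size and direction. Including Egfr, 3 of 9 members had tumour differences of opposite sign in the genotypes, which is 33.3% against 21.8% of all genes. Egf is among the 3, and the filter set its sign in F/F mice, so this share is not independent of the filter.

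Errfi1, whose product binds the kinase domain of EGFR and ERBB2 and inhibits it, is itself induced by MAP kinase signalling. It stood at 8.33 in F/F tumour and 8.10 in wild-type tumour, against 8.61 in F/F normal colon and 8.38 in wild-type normal colon. The tumour arrays were lower by -0.28 in each genotype, and the fitted difference of -0.28 (SE 0.11) did not pass the test (adjusted p = 0.139).

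**Figure D2:**
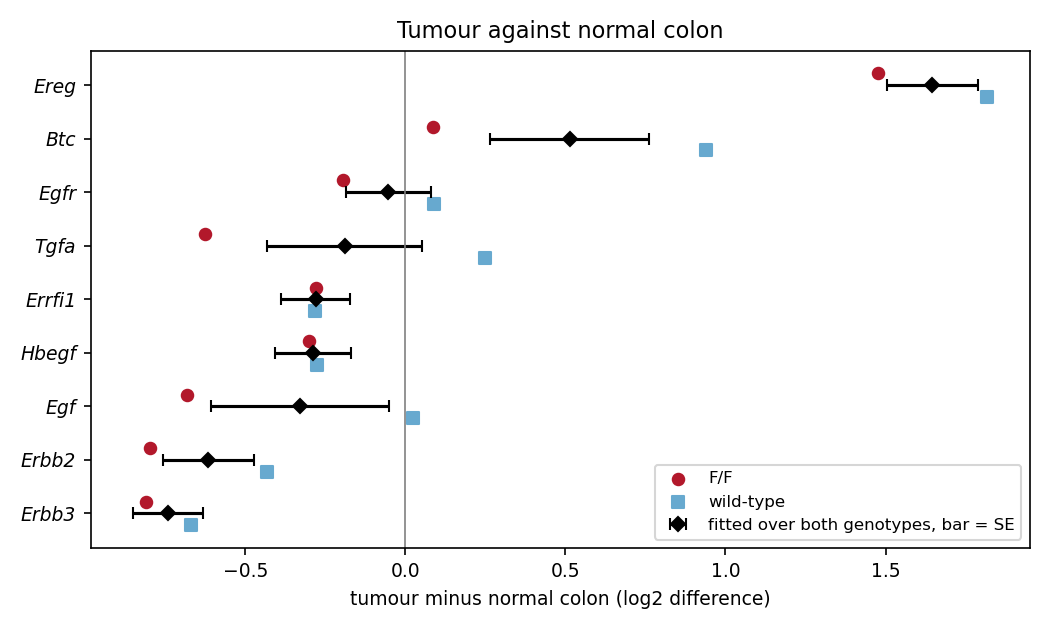
The plot shows the tumour-minus-normal log2 difference (horizontal axis) of each member in F/F mice (circles), in wild-type mice (squares) and as fitted over both genotypes (diamonds, bars are SE). Ereg lay furthest to the right at 1.65 and Erbb3 furthest to the left at -0.74, and the genotypes were far apart for Btc, Tgfa and Egf.

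In the RefSeq gene table of mouse assembly GRCm38.p6, the protein-coding genes Epgn, Ereg, Areg and Btc follow each other on chromosome 5 with no other protein-coding gene between them, so the members that were higher on both tumour arrays, Ereg and Btc, share that cluster. Epgn, the gene of the ligand epigen, did not go with them. It was below the filter on all arrays, at 3.67 in F/F tumour and 3.75 in wild-type tumour, against 4.63 in F/F normal colon and 4.64 in wild-type normal colon. Parm1, the gene beside Btc on the outer side, had 9.50 in F/F tumour and 9.14 in wild-type tumour, against 9.31 in F/F normal colon and 9.39 in wild-type normal colon, so its tissues overlapped. The other 7 listed genes have no family member as a direct neighbour.

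RefSeq promoter windows, 250 bases before to 50 after a gene's start, were given for 7 of the 10 listed genes and not for Ereg, Erbb3 or Hbegf. Windows are shown for Btc, as the cluster gene that was high in wild-type tumour, and for Erbb2, as the receptor that was lower in tumour and higher in F/F normal colon. Capitals mark matches, on either strand, to 6 motifs: CTTTGAT (TCF/LEF), TGANTCA (AP-1), TGACG (core of the cyclic AMP response element), CCGGAAG (ETS), CCAAT and TATAAA. The Btc window is chr5:91402945-91403244 and the Erbb2 window chr11:98412234-98412533 of GRCm38.p6, on the minus strand for Btc and the plus strand for Erbb2.
Btc: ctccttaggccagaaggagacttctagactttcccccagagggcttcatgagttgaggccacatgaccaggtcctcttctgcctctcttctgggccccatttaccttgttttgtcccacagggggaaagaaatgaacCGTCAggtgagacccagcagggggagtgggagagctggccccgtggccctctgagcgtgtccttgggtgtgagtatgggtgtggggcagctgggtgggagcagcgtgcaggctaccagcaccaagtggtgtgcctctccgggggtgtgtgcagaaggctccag
Erbb2: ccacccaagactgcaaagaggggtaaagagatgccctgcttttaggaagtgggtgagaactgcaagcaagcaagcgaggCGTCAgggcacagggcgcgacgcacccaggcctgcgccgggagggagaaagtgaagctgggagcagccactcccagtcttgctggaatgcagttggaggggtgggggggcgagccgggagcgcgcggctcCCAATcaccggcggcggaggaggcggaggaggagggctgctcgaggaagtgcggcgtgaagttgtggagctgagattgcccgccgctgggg
Both windows held TGACG on the opposite strand, from position -113 in Btc and -171 in Erbb2, and the Erbb2 window also held CCAAT from -41. Of 32851 promoter windows, 20.8% hold TGACG and 37.4% hold CCAAT, so both are common. The TCF/LEF motif, present in 3.7% of windows, was in neither of them. A match describes the letters and does not show binding.

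F/F was then set against wild-type within each tissue, the question being whether these genes differ with the Dmt1 genotype. No member was past a log2 difference of 1, in tumour (2.21% of all genes were) or in normal colon (1.62%). At a log2 difference of 0.5, Ereg and Btc were past it in tumour (22.2% of the members against 11.6% of all genes) and Erbb2 in normal colon (11.1% against 11.7%). Over both tissues limma called no member and no gene at all for genotype. At an unadjusted p under 0.05 it had 3 members (Erbb2, Erbb3 and Ereg) and 8.22% of all genes. The genotype values are therefore given as a description.

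The receptors Erbb2 and Erbb3 were on the higher side in F/F. Erbb2 differed by 0.31 in tumour and 0.67 in normal colon (fitted 0.49, SE 0.14, adjusted p = 0.564), and Erbb3 by 0.25 in tumour and 0.39 in normal colon (fitted 0.32, SE 0.11, adjusted p = 0.587). In each tissue the F/F array was the higher. Errfi1 was higher by 0.23 in both tissues (fitted 0.23, SE 0.11, adjusted p = 0.656). For no member were both F/F arrays above both wild-type arrays, as they were for 9.59% of all genes. In the other direction, Egfr had both F/F arrays (7.34 in tumour and 7.54 in normal colon) below both wild-type arrays (7.75 and 7.66). The share of all genes in that direction was not counted.

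Egfr and the ligands Ereg, Btc and Hbegf were on the lower side in F/F. Ereg differed by -0.71 in tumour and -0.36 in normal colon (fitted -0.54, SE 0.14, adjusted p = 0.552). Egfr differed by -0.41 in tumour and -0.12 in normal colon (fitted -0.26, SE 0.13, adjusted p = 0.662). Btc differed by -0.89 in tumour, where 0.8% of all genes were as low or lower, and by -0.04 in normal colon (fitted -0.46, SE 0.25, adjusted p = 0.675). Hbegf differed least, by -0.06 and -0.03. In normal colon the sign turned for Btc after quantile normalization and median centring, and for Hbegf after median centring, so their place among the lower members depends on scaling. Of all 12060 genes, 3491 were higher in F/F in both tissues and 3189 lower. Of the 9 members, 3 were higher (33.3%) and 4 lower (44.4%), and 2 had opposite signs.

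Those 2 were Tgfa, at -0.38 in tumour and 0.49 in normal colon, and Egf, at -0.38 and 0.33. Their fitted genotype differences were therefore near 0, at 0.05 for Tgfa (adjusted p = 0.967) and -0.02 for Egf (adjusted p = 0.992). Opposite signs are common, and 44.6% of all genes had them. As Egf passed the filter through the F/F normal array alone, its higher F/F value in normal colon was set by the filter.

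**Figure D3:**
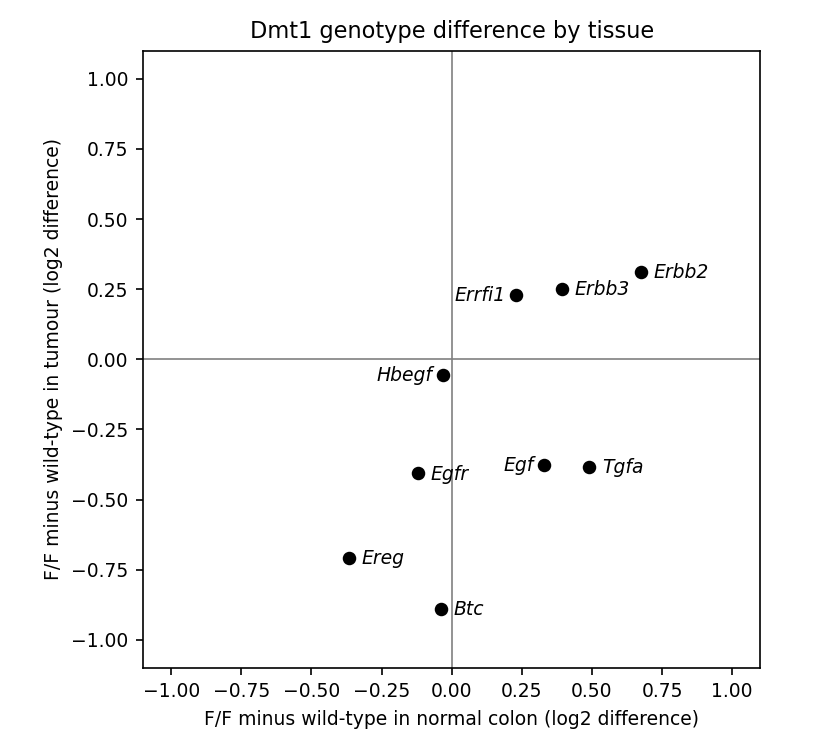
Each point is a member, placed by its F/F minus wild-type log2 difference in normal colon (horizontal axis) and in tumour (vertical axis). Erbb2, Erbb3 and Errfi1 lay in the upper right, Ereg, Egfr, Btc and Hbegf in the lower left, and Tgfa and Egf in the lower right.

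Cell markers differed between the same arrays. In tumour, 6 of 8 absorptive colonocyte markers differed by 2-fold or more between F/F and wild-type, with a list median of 1.64, while 5 of 6 neutrophil markers did so with a median of -1.29 and 4 of 5 B cell markers with a median of 1.77. In normal colon the median F/F minus wild-type difference was -0.91 for posterior Hox genes and 1.03 for proximal markers, with 3 of 6 genes of each past 2-fold. For Paneth cell markers it was -1.12 there, with 3 of 5 past 2-fold. Smooth muscle markers had a median of -0.58 in normal colon and 0.67 in tumour. Several of these genes were kept only through the array in which they were high. They were 4 of the 6 neutrophil markers through wild-type tumour and 2 of the 5 B cell markers (Cr2 and Pax5) through F/F tumour. Of the proximal markers, Sis was kept only through F/F normal colon and Gata4 only through wild-type normal colon. The counts and medians of the neutrophil, B cell and proximal lists are thus not independent of the filter. The part of these lists in the genotype values of the members was not tested.

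The rest of the EGF family was mostly near or below the filter. Of Erbb4, Epgn, Nrg1, Nrg2, Nrg3 and Nrg4, only Nrg1 and Nrg4 were kept. Nrg1, the gene of neuregulin 1, a ligand of ERBB3 and ERBB4, had 7.73 in F/F tumour and 7.98 in wild-type tumour, against 5.52 in F/F normal colon and 6.47 in wild-type normal colon. Both tumours were higher, and Nrg1 rose by 1.86 in the fit (SE 0.20, adjusted p = 0.0149), where the receptor Erbb3 fell. Nrg4 had 4.28 in F/F tumour and 4.29 in wild-type tumour, against 4.74 in F/F normal colon and 4.15 in wild-type normal colon, and did not pass (adjusted p = 0.684). Erbb4 was between 2.82 and 3.04 on all arrays, below the filter.

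Of 10 genes linked to the release of ligands from the membrane, the inhibitor Timp3 among them, 3 rose in tumour and none fell. Their median fitted difference was 0.44. Beside the counts of this list and of the pathway lists below, 11.0% of all 12060 genes were called higher and 8.23% lower. The metalloproteinase Adam8 rose by 2.40 (SE 0.18, adjusted p = 0.00812) and Adam12 by 1.62 (SE 0.17, adjusted p = 0.0141). Both were below the filter in normal colon, Adam8 at 3.33 in F/F and 4.01 in wild-type and Adam12 at 3.93 and 4.39, so they were kept through the tumour arrays alone, had to differ, and have differences that are uncertain in size. Timp3, which inhibits such proteases, rose by 1.35 (SE 0.15, adjusted p = 0.0154). Adam17, the main protease for TGF-alpha, amphiregulin, epiregulin and HB-EGF, was at 7.42 in F/F tumour and 7.53 in wild-type tumour, against 7.33 in F/F normal colon and 7.34 in wild-type normal colon, and did not pass (adjusted p = 0.432). Its partners Rhbdf1 and Rhbdf2, which carry ADAM17 to the cell surface, had fitted differences of 0.01 and 0.44 and did not pass. Adam10, which releases EGF and betacellulin, was at 0.43 (adjusted p = 0.081), Adam19 at 0.73 (adjusted p = 0.097), Adam15 at -0.44 (adjusted p = 0.082) and Adam9 at 0.01 (adjusted p = 0.947). Adam19, like Adam8 and Adam12, was kept through the tumour arrays alone and had to be higher there. The count and median of this list are thus not independent of the filter.

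Adam8 is known to be expressed by leukocytes. Of 6 macrophage markers 2 rose, with summed linear signals of 465 in F/F tumour and 491 in wild-type tumour, against 246 in F/F normal colon and 330 in wild-type normal colon. Of 6 neutrophil markers 2 rose, S100a8 and Retnlg, and both passed the filter through tumour arrays alone. Their sums were 643 in F/F tumour and 634 in wild-type tumour, against 179 in F/F normal colon and 370 in wild-type normal colon, but most of this was Ly6g except in wild-type tumour. Without Ly6g the other 5 summed to 130 in F/F tumour and 346 in wild-type tumour, against 59.5 in F/F normal colon and 73.1 in wild-type normal colon. Ly6g itself was higher in tumour by 2.10 in F/F mice and differed by -0.04 in wild-type mice. Of 7 fibroblast markers 5 rose, with 1685 in F/F tumour and 1949 in wild-type tumour, against 999 in F/F normal colon and 1280 in wild-type normal colon, and fibroblasts are a known source of Nrg1. The part of these cells in the Adam8, Adam12 and Nrg1 values was not tested.

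Of 15 genes that restrain or degrade the receptors, 2 rose and none fell, with a median of 0.08. The ubiquitin ligase Cblb rose by 0.79 (SE 0.17, adjusted p = 0.0432) and Sh3kbp1, an adaptor that works with CBL proteins in receptor uptake, by 0.86 (SE 0.15, adjusted p = 0.0318). Of 26 genes of the signal relay 21 had a probe set, and 1 of these rose and none fell, with a median of 0.01. It was Plcg1, the gene of a phospholipase bound by the activated receptor, at 0.86 (SE 0.15, adjusted p = 0.0305). Cblb and Sh3kbp1 did not pass without the trend in eBayes (adjusted p = 0.0641 and 0.0514), nor Cblb without the filter (0.0507).

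Genes induced by MAP kinase signalling changed in both directions. Of 22 listed, 20 had a probe set and 18 were kept, of which 4 rose and 1 fell, with a median of 0.33. Spry4 was kept through the tumour arrays alone and Spred3 through wild-type tumour alone, so both had to be higher there. Neither was among the genes called, but the medians of this list are not independent of the filter. Ier3 rose by 1.80 (SE 0.26, adjusted p = 0.0218), Phlda1 by 1.64 (SE 0.13, adjusted p = 0.00907) and Dusp4, a phosphatase that turns MAP kinases off, by 1.40 (SE 0.23, adjusted p = 0.0287). Emp1, an epithelial membrane protein, fell by 2.02 (SE 0.18, adjusted p = 0.0104). These genes answer to many signals besides the EGF receptor family. In tumour, Fos differed most between genotypes, by 1.08, with 8.41 in F/F tumour and 7.32 in wild-type tumour, against 8.06 in F/F normal colon and 8.05 in wild-type normal colon. It was the only one of the 18 past 2-fold in that comparison. The list median of F/F minus wild-type in tumour was -0.27, in the opposite direction to Fos. Ier3 (-0.89), Dusp4 (-0.67) and Phlda1 (-0.34) were lower in F/F tumour and Emp1 (0.96) was higher. The pathway calls also depended on single arrays. With 1 array left out and tissue alone in the model, of the 11 called genes named from the pathway lists 10 passed without F/F tumour, 2 without wild-type tumour, 0 without F/F normal colon and 6 without wild-type normal colon.

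**Figure D4:**
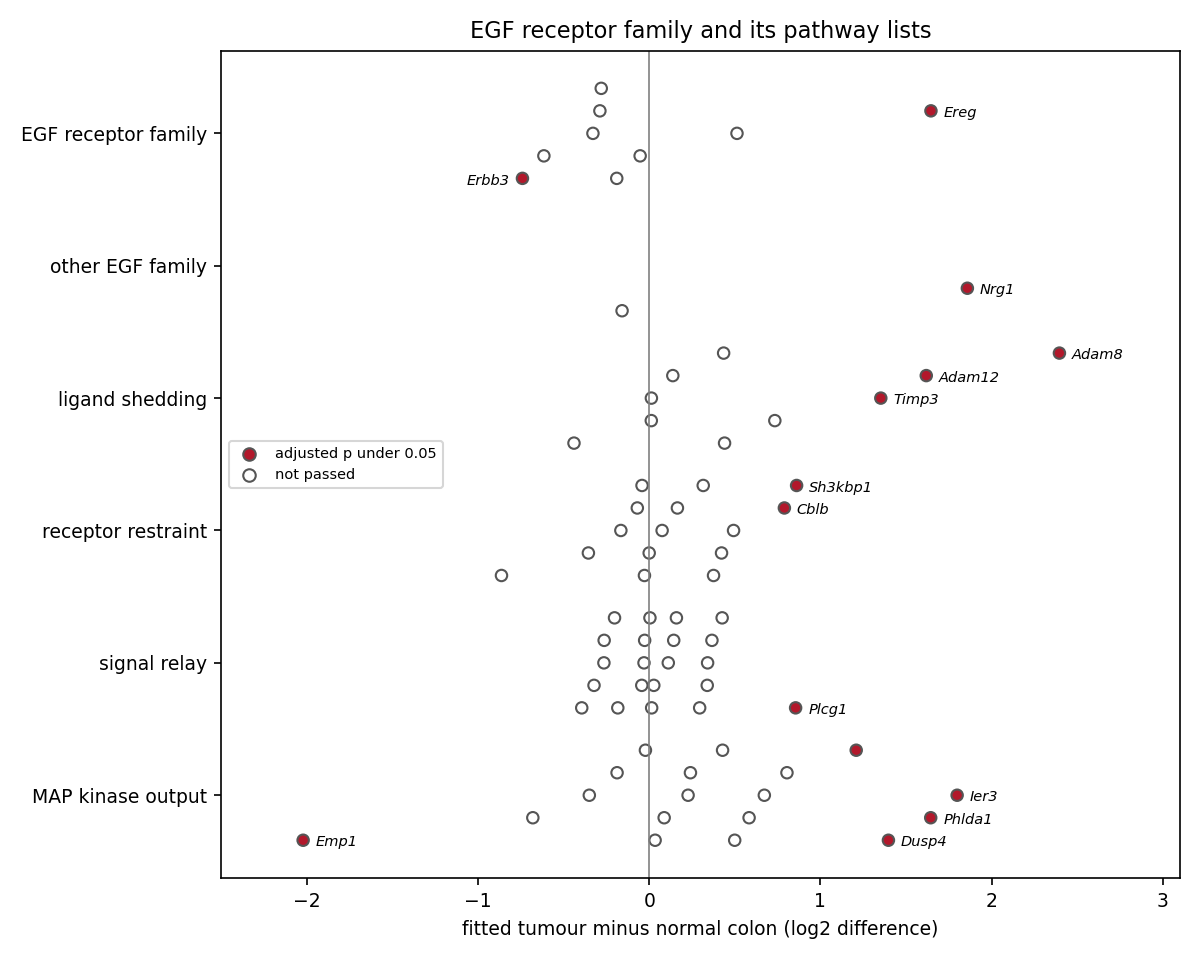
The plot gives limma's fitted tumour-minus-normal log2 difference (horizontal axis) of each kept gene of the EGF receptor family and of 5 pathway lists (rows), filled where the adjusted p was under 0.05. Adam8, Nrg1, Ier3, Ereg, Phlda1 and Adam12 stood furthest to the right and Emp1 far to the left. The signal relay lay around 0 apart from Plcg1.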

How the data were processed

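Each array gave 1 log2 value per probe set, as deposited by the authors. The submitters' processing notes name RMA and oligo without versions. RMA corrects the background and is meant to bring the arrays to a common distribution, which takes out differences in total signal, and it gives no detection call. The array medians still differed slightly, at 4.343 in F/F tumour and 4.339 in wild-type tumour, against 4.266 in F/F normal colon and 4.305 in wild-type normal colon. The table had 0 columns that belong to no sample. Of 41345 probe sets, 23521 had exactly 1 gene in the platform's annotation, 1814 had several and 16010 were unnamed. Symbols came from RefSeq (GRCm38.p6) through the gene ID for 23328 of the single-gene probe sets.

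Per gene, the brightest probe set by mean was used. Genes whose highest value was under the median level (log2 4.67) were left out. limma 3.58.1 in R 4.3.3 was fitted on the 4 arrays with tissue and genotype as additive terms and a trend, with Benjamini-Hochberg adjustment at 0.05 over 12060 genes. The fit has 1 residual degree of freedom and a prior of 3.4. Its p-values do not measure the spread between animals. They rest on how far the tumour-minus-normal difference departs between the genotypes, together with the prior. Such a gap may be technical or a real difference between the genotypes, and the fit counts either as error. The number of arrays limits the precision. "Rose" and "fell" mean an adjusted p under 0.05. All members were named, and from each pathway list the called genes with the largest fitted differences, up to 3 per direction. The members and the 22 lists were chosen with earlier results of these data known. Alternatives covered scaling, the filter, probe sets, eBayes settings, the model and leaving out arrays.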

Additional observations from a re-analysis of the deposited data

Results flagged for a closer look

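Tumour minus normal colon went in opposite directions in F/F and wild-type mice for Egfr, Tgfa, Egf and Nrg4, 1 array against 1 in each genotype. The F/F difference minus the wild-type difference was -0.28 for Egfr, -0.87 for Tgfa, -0.71 for Egf and -0.60 for Nrg4. For Tgfa, Egf and Nrg4 the same numbers also mark genotype differences of opposite sign in tumour and normal colon, at -0.87, -0.71 and -0.60. These differences were not tested, since the term that would test them is the residual of the fit. Egf and Nrg4 passed the filter on level only through F/F normal colon.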

How the results depend on the processing

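Over 9 other settings that used all the arrays, Ereg passed in 9, at 0.98 to 1.65 and adjusted p 0.000709 to 0.030, and Erbb3 in 8. Members called lower were 2 after quantile normalization, cyclic loess, median centring, the mean of probe sets and the robust fit, the second being Erbb2, and 0 with the tissue term only. With 1 array left out and the tissue term only, members called higher were between 0 and 2 and members called lower 0. Ereg passed only without F/F tumour (adjusted p 0.0128 to 0.128 over the 4), where Btc passed too at 0.96. Genes called higher then numbered 38 to 905 and lower 11 to 745, lowest without F/F normal colon. Genes called lower were 1528 after median centring and 651 with the tissue term only. The share of calls that rose was 57.3% as reported, 47.5% after quantile normalization, 46.4% after cyclic loess and 49.3% after median centring. At a log2 difference of 0.5, members past it were 5 in F/F and 3 in wild-type tumour against normal colon, and 2 in tumour and 1 in normal colon for genotype. Egf, kept through F/F normal colon alone, was among the 5. With the mean of probe sets none was past 1 in F/F tumour against normal colon, as Ereg was at 0.94. Signs turned for values near 0, among them the following. Egf's fitted genotype difference was 0.021 after quantile normalization. The genotype difference in normal colon was 0.011 for Btc after quantile normalization, and 0.0017 for Btc and 0.0084 for Hbegf after median centring. The tissue difference of Adam9 was -0.0051, -0.054 and -0.043 after quantile, loess and median scaling. That of Rhbdf1 was -0.103, -0.0956 and -0.043 after the same scalings. With 1 array left out, the tissue difference ranged from -0.256 to 0.150 for Egfr, -0.435 to 0.056 for Tgfa, -0.450 to 0.132 for Nrg4, -0.0232 to 0.0474 for Adam9 and -0.254 to 0.279 for Rhbdf1. The genotype term already sets tumour against normal colon within each genotype, and the tissue term only is the fit without it.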
